A study of Mus musculus with 8 samples.

Results

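The 2'-5' oligoadenylate synthetase (OAS) family was followed at 7 mouse genes, *Oas1a*, *Oas1b*, *Oas1g*, *Oas2*, *Oas3*, *Oasl1* and *Oasl2*, out of 41325 gene symbols listed in each library. The genes were taken by symbol and had been selected on earlier results from these same RPKM values, so their levels and ratios are given as a description. They were most abundant in shMLL1 cells at day 5, where their summed RPKM was 175, and next in shNFIB cells at day 5, where it was 30.7. For shControl cells the sum was 3.81 (day 0) and 4.18 (day 5), and it was between 0.269 and 1.36 in the other 4 libraries.

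RNA was sequenced from C3H10T1/2, a mesenchymal stem cell (MSC) line of the mouse, which forms fat cells after induction with insulin, dexamethasone and isobutylmethylxanthine. Day 0 cells were post-confluent cells just before induction, and day 5 cells had been through the adipogenic protocol. The shControl cells carry the genotype WT in the labels. The shKDM4D, shNFIB and shMLL1 cells express a short hairpin RNA from pLKO.1 against *Kdm4d* (a histone H3K9 demethylase), *Nfib* (a transcription factor) or *Kmt2a* (which encodes MLL1, a histone H3K4 methyltransferase), and came from isolated puromycin-resistant clones. The 4 lines and 2 days gave 8 libraries, 1 per condition, so a difference between lines cannot be told apart from a difference between clones or between single libraries. No p-value is given, and the 95% intervals cover counting error only.

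The number of mapped reads recovered from the RPKM values was between 15800000 and 38200000 per library. *Nfib* in the shNFIB libraries had log2 ratios to shControl of -2.10 (day 0) and -2.33 (day 5), and *Kmt2a* in the shMLL1 libraries of -1.37 and -1.70. *Kdm4d* had between 1 and 15 reads in each library, too few to show a knockdown at day 0. The mesenchymal markers *Col1a1*, *Col1a2*, *Vim* and *Pdgfrb* were present in every library. *Thy1*, the fifth marker of that list, had an RPKM between 11.1 and 25.0 in the shControl and shMLL1 libraries and at most 0.139 in the shKDM4D and shNFIB libraries, so these lines stand apart from the others in a marker that was not targeted. In bulk RNA, fewer expressing cells and less RNA per cell cannot be told apart.

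OAS enzymes bind double-stranded RNA and then join ATP into short 2'-5'-linked oligoadenylates (2-5A). 2-5A is a second messenger of the antiviral response. The genes are classic targets of type I interferon, which acts through its receptor, the kinases JAK1 and TYK2 and the factor ISGF3 on interferon-stimulated response elements (ISRE). *Oas1a*, *Oas1g*, *Oas2* and *Oas3* encode synthetases that differ in their number of OAS units. *Oas1b* is the flavivirus resistance gene, which carries a truncating stop codon in many laboratory strains and was annotated as a polymorphic pseudogene in GENCODE M21. *Oasl1* and *Oasl2* encode OAS-like proteins with ubiquitin-like domains. Mouse OASL1 is known to repress translation of *Irf7* mRNA, and OASL2 keeps synthetase activity.

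All 7 genes lie on chromosome 5 of GRCm38, in 2 runs. *Oasl2* (chr5:114896936-114912234) and *Oasl1* (chr5:114923240-114937915) are neighbours on the plus strand. *Oas2* (chr5:120730333-120749853), *Oas3* (chr5:120753098-120777661), *Oas1g* (chr5:120876142-120887613) and *Oas1a* (chr5:120896256-120907521) lie on the minus strand. *Oas1b* (chr5:120812635-120824163) lies between them on the plus strand. Its annotated start is 121 bases from that of *Oas1c*, which is transcribed in the opposite direction.

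The start sites of the family were searched for the letters of the element through which ISGF3 acts, because the genes were high together in 2 libraries. RefSeq start windows (GRCm38.p6, 250 bases before to 50 bases after the start) were found for 5 of the 7 genes, namely *Oas1a*, *Oas1g*, *Oas3*, *Oasl1* and *Oasl2*. The searches were for the ISRE core (GAAA, any 2 bases, GAAA) and for the shorter IRF core (AA, any 2 bases, GAAA), which the ISRE core contains, on both strands, and they were chosen after the windows had been looked at. The ISRE core was in 3 of the 5 windows (*Oas1a*, *Oas1g* and *Oas3*), and in 1131 of 32851 RefSeq windows (3.44%). The IRF core was in those 3 and in the window of *Oasl1*, and in 23.9% of RefSeq windows. The window of *Oasl2* held neither, which says only that these letters are not in it. The 30 bases around the motif are shown on the strand of the gene, with the motif in capitals, for the 3 windows with an ISRE core, for 1 of 3 IRF cores of *Oasl1*, and for the start of *Oas1b*, which was read from the *Oas1c* window.
Oas1a, chr5:120907523-120907552, minus strand: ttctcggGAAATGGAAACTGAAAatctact
Oas1g, chr5:120887609-120887638, minus strand: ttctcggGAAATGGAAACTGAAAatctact
Oas1b, chr5:120812606-120812635, plus strand: ttcccggGAAATGGAAACTGAAAgtcccat
Oas3, chr5:120777715-120777744, minus strand: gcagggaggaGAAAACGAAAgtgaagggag
Oasl1, chr5:114923052-114923081, plus strand: actcaagccaaTTTCAGTTtacaaacgtca
In *Oas1a* and *Oas1g* the 30 bases were identical, with the motif from base -20 to -5 and from -18 to -3 of the RefSeq start, which is base 0. The same 16 capital letters stood from -22 to -7 of the annotated start of *Oas1b*. Over all RefSeq windows this 16-base run was found in 7 windows, which belong to *Apol9a*, *Apol9b*, *Oas1a*, *Oas1c* and *Oas1g*. The ISRE core of *Oas3* stood further from the start, from -75 to -66, and the *Oasl1* match shown, read on the opposite strand, from -177 to -170.

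**Figure D1:**
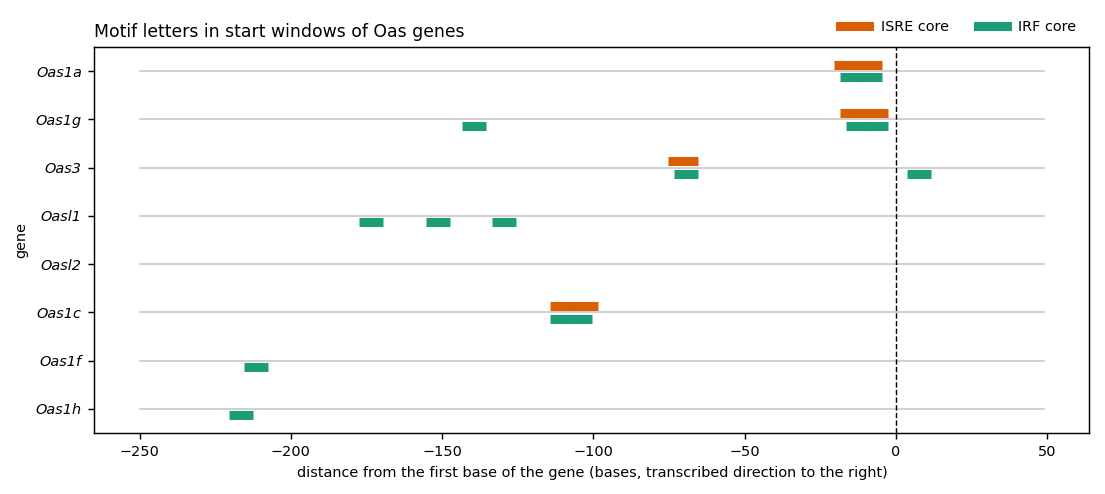
Position of ISRE core letters (orange) and IRF core letters (green) in the RefSeq start windows of *Oas* genes, in bases from the start at 0 (dashed line), with the transcribed direction to the right. The ISRE core of *Oas1a* and *Oas1g* lies within 20 bases before the start, that of *Oas3* from -75 to -66, and the *Oasl2* window holds neither motif.

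The RPKM values of the synthetase genes were read first. *Oas1a* was measured at an RPKM of 2.65 (day 0) and 2.09 (day 5) with shControl, 0 and 0.0982 with shKDM4D, 0.0853 and 5.66 with shNFIB, and 0.778 and 62.8 with shMLL1. With shControl at day 0 it alone of the 7 exceeded an RPKM of 1, and it was near 0 in both shKDM4D libraries. *Oas1g*, its close paralog, was at 0.0802 and 0.0442 RPKM with shControl, 0.0656 and 0 with shKDM4D, 0 and 0.917 with shNFIB, and 0.0559 and 19.1 with shMLL1. It was covered by at most 5 reads in the 6 libraries other than shNFIB and shMLL1 cells at day 5. *Oas1b* was at 0.226 and 0.467 RPKM with shControl, 0.154 and 0.372 with shKDM4D, 0.108 and 1.74 with shNFIB, and 0.105 and 9.47 with shMLL1. In each line it was higher at day 5 than at day 0.

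*Oas2* was at 0.270 and 0.267 RPKM with shControl, 0 and 0.156 with shKDM4D, 0 and 5.16 with shNFIB, and 0.159 and 31.1 with shMLL1. It had no read in shKDM4D and shNFIB cells at day 0 and 32 reads in shControl cells at day 0. *Oas3*, which encodes the largest of the synthetases, was at 0.0159 and 0.00732 RPKM with shControl, 0 and 0 with shKDM4D, 0 and 0.179 with shNFIB, and 0.0185 and 4.13 with shMLL1. It had at most 5 reads in every library but shNFIB cells (20 reads) and shMLL1 cells (1114 reads) at day 5.

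Of the OAS-like genes, *Oasl2* was at 0.565 and 1.29 RPKM with shControl, 0.0803 and 0.639 with shKDM4D, 0.0756 and 17.0 with shNFIB, and 0.218 and 47.8 with shMLL1. It was higher at day 5 than at day 0 in each line. *Oasl1* was at 0 and 0.0198 RPKM with shControl, 0.137 and 0 with shKDM4D, 0 and 0 with shNFIB, and 0.0301 and 0.583 with shMLL1. It never reached an RPKM of 1, and it was listed at 0 in shNFIB cells at day 5, where the other 6 genes had between 20 and 1720 reads. Of the 7 genes, 6 had an RPKM over 1 in at least 1 library, the limit of the 11513 genes used for comparison, and only 2 of them (*Oas1a* and *Oasl2*) also passed it outside shNFIB and shMLL1 cells at day 5.

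**Figure D2:**
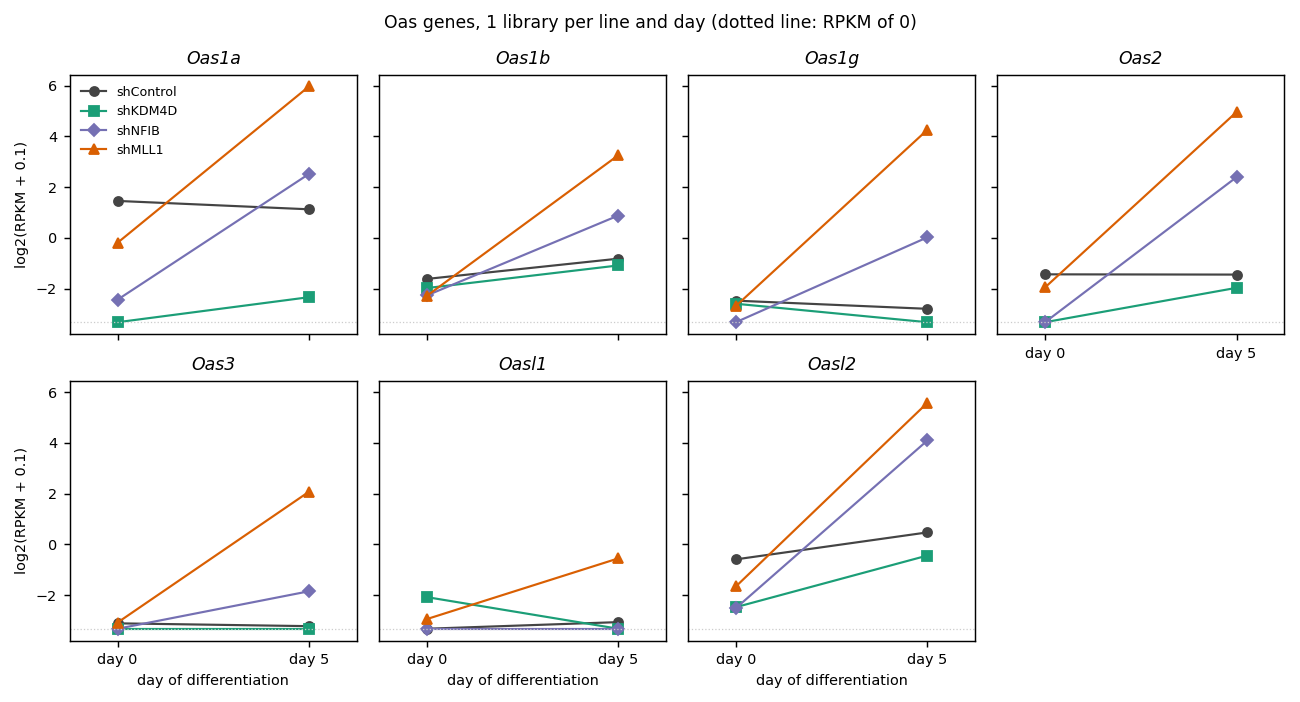
RPKM of the 7 *Oas* genes on the scale log2(RPKM + 0.1) at day 0 and day 5, 1 library per point, with a line for each cell line and a dotted line at an RPKM of 0. *Oas1a* runs from 2.65 to 2.09 in shControl cells and from 0.778 to 62.8 in shMLL1 cells.

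The first comparison set each knockdown line beside shControl cells at day 5, which shows how *Oas* expression differed between the lines after the adipogenic protocol. The 3 comparisons share the shControl library. *Oas1b*, *Oas1g*, *Oas2* and *Oas3* passed the RPKM limit only through shNFIB or shMLL1 cells at day 5, and *Oasl1* did not pass it. All 7 genes were also selected on these same values. The counts of higher genes at day 5, here and below, are therefore a description and no independent result beside the share of the 11513 genes. In shMLL1 cells 7 of 7 genes were more than 2-fold higher, against 5.25% of the 11513 genes. The log2 ratio was 4.91 for *Oas1a* (95% interval 4.59 to 5.26), 4.34 for *Oas1b* (3.67 to 5.10), 6.86 for *Oas2* (6.27 to 7.52) and 5.21 for *Oasl2* (4.99 to 5.45). The larger ratios of *Oas1g*, 8.75 (6.90 to 11.80), and *Oas3*, 9.14 (6.66 to 14.45), rest on 2 reads and 1 read in shControl cells. The same holds for *Oasl1*, at 4.88 (2.34 to 10.21) with 58 reads against 1 read.

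In shNFIB cells at day 5, 6 of 7 genes were more than 2-fold higher than in shControl cells, against 5.54% of the 11513 genes. The log2 ratio was 1.44 for *Oas1a* (1.04 to 1.85), 1.90 for *Oas1b* (1.11 to 2.75), 4.27 for *Oas2* (3.66 to 4.95) and 3.72 for *Oasl2* (3.49 to 3.97). *Oas1g* was at 4.37 (2.41 to 7.48, 34 reads against 2) and *Oas3* at 4.61 (1.96 to 9.98, 20 reads against 1). *Oas1a*, the most abundant of these genes in shControl cells, had the lowest of the 6 ratios. Its interval did not overlap those of *Oas1g*, *Oas2*, *Oas3* and *Oasl2*. The split of reads between *Oas1a* and *Oas1g* is uncertain. Counted together, this pair was at 1.67 (1.28 to 2.06), an interval that overlaps that of *Oas3*. *Oasl1* was the 1 gene on the lower side, against 5.67% of the 11513 genes, but this was no read against 1 read in shControl cells, so no fold is given.

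In shKDM4D cells at day 5 none of the 7 genes was more than 2-fold higher than in shControl cells, against 1.88% of the 11513 genes, and 5 were lower, against 4.57%. *Oas1a* was lower by a log2 ratio of -4.41 (-6.32 to -2.99), with 4 reads against 76. *Oasl2* lay at the 2-fold limit, with a log2 ratio of -1.01 (-1.41 to -0.63). The other lower genes were *Oas1g*, *Oas3* and *Oasl1*, which had no read against 2 reads, 1 read and 1 read and carry no fold. The log2 ratios of *Oas2*, -0.78 (-1.82 to 0.22), and *Oas1b*, -0.33 (-1.40 to 0.72), had intervals that include 0. By the stricter rule of a 2-fold difference whose interval leaves out 0, 2 genes were lower in shKDM4D cells (4.13% of the 11513 genes), while 6 were higher in shNFIB cells (5.13%) and 7 in shMLL1 cells (4.95%).

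**Figure D3:**
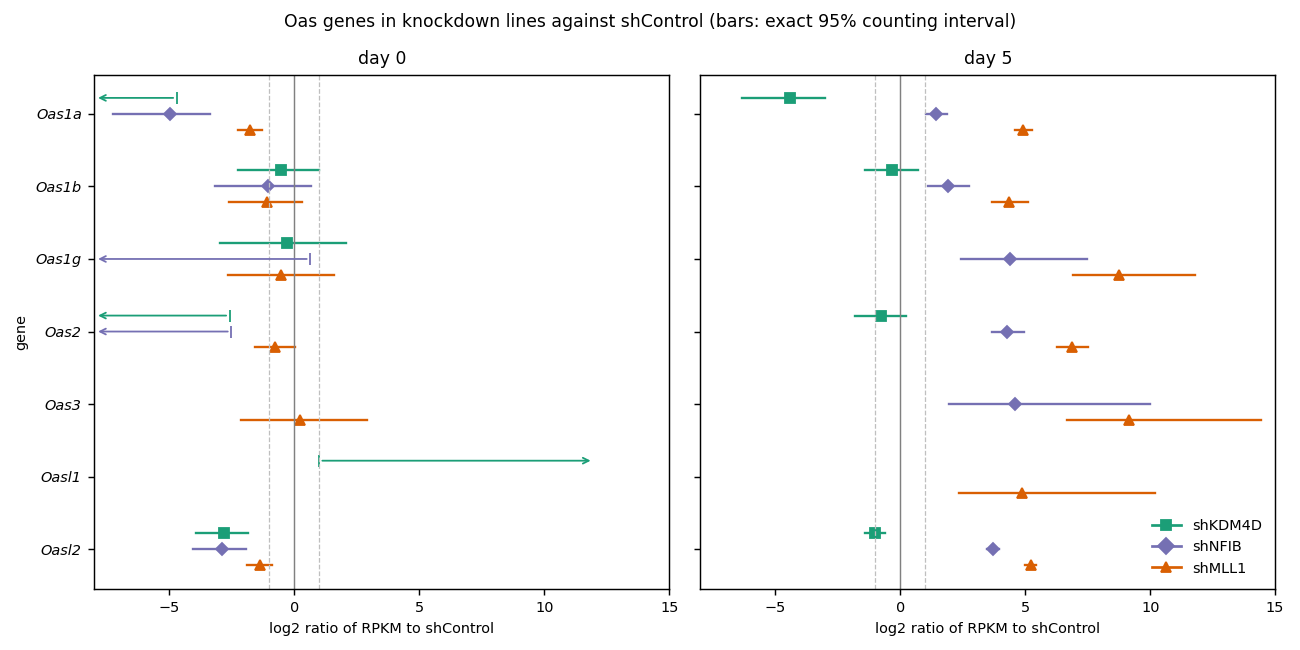
Log2 ratio of RPKM in shKDM4D (squares), shNFIB (diamonds) and shMLL1 cells (triangles) to shControl cells at day 0 (left) and day 5 (right), with exact 95% counting intervals as bars and dashed lines at 2-fold. An arrow starts at the interval bound where 1 library had no read, and pairs with at most 3 reads in both libraries are not drawn. At day 0 *Oas1a* and *Oasl2* lie below 0 in every line, and at day 5 the drawn shNFIB and shMLL1 values lie above 0.

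In the same comparison at day 0, before induction, *Oas1a* and *Oasl2* were lower in each knockdown line than in shControl cells, and the other genes varied. All comparisons of a knockdown line at day 0 share 1 shControl library, so they are not independent of each other. In shKDM4D cells 4 of 7 genes were more than 2-fold lower than in shControl cells, against 4.26% of the 11513 genes, and 1 was higher, against 1.98%. *Oas1a* had no read against 133 reads, which makes it at least 32.5-fold lower, and *Oas2* no read against 32, at least 7.82-fold lower (floor of 3 reads in the library without reads). *Oasl2* was at -2.82 (-3.92 to -1.87). The fourth gene, *Oas3*, had no read against 3 and carries no fold. The higher gene was *Oasl1*, with 7 reads against none, at least 3.18-fold.

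In shNFIB cells at day 0, 6 of 7 genes were more than 2-fold lower, against 6.05% of the 11513 genes, and none was higher, against 2.95%. *Oas1a* was at -4.96 (-7.25 to -3.38, 3 reads against 133) and *Oasl2* at -2.90 (-4.07 to -1.92). *Oas2* had no read against 32, at least 7.47-fold lower. The other 3 genes rest on few reads, namely *Oas1b* with 4 against 12 (log2 ratio -1.07, -3.16 to 0.65), *Oas1g* with 0 against 5 (at least 1.17-fold) and *Oas3* with 0 against 3, so 3 genes are left by the rule with the interval, against 5.02%. In shMLL1 cells at day 0, 3 genes were lower, against 7.43%, and 1 was higher, against 1.67%. *Oas1a* was at -1.77 (-2.25 to -1.31), *Oasl2* at -1.38 (-1.89 to -0.88) and *Oas1b* at -1.11 (-2.60 to 0.31). The higher gene was *Oasl1*, with 3 reads against none. *Oas2* was at -0.77 (-1.56 to 0.02).

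On the log2(RPKM + 0.1) scale the ratios of the 7 genes to shControl cells at day 0 had a median of -0.36 with shKDM4D, -0.85 with shNFIB and -0.52 with shMLL1. At day 5 it was -0.52, 1.70 and 5.11. The median was thus below 0 at day 0 and above 0 at day 5 in shNFIB and shMLL1 cells, and below 0 on both days in shKDM4D cells. Single genes departed from it, since *Oas3* (0.22, -2.14 to 2.90, without a pseudocount) and *Oasl1* were not lower in shMLL1 cells at day 0, and *Oasl1* was not higher in shNFIB cells at day 5. Whether the ratios differed between the days was not tested, as there is 1 library per line and day.

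Within a line, day 5 was then set beside day 0. Ribosomal RNA-like transcripts took between 7.95% and 10.5% of the mapped reads in the day 0 libraries and between 3.07% and 3.62% in the day 5 libraries, and their part in the differences between the days was not tested. In shControl cells 3 genes were more than 2-fold higher at day 5, against 13.0% of the 11513 genes, and 1 was lower, against 8.56%. Only *Oasl2*, at 1.19 (0.82 to 1.57), had an interval that leaves out 0, against 12.6% of the 11513 genes by that rule. *Oas1a* was at -0.34 (-0.77 to 0.07) and *Oas2* at -0.01 (-0.85 to 0.80). *Oas1b* was at 1.05 (-0.09 to 2.23), and under quantile normalization its value took the opposite sign. *Oasl1* (1 read against none) and *Oas3* (1 read against 3) carry no fold. In shKDM4D cells 4 genes were higher, against 12.8%, and 2 were lower, against 8.44%. *Oasl2* was at 2.99 (2.05 to 4.10) and *Oas2* had 15 reads against none, at least 4.52-fold higher. *Oas1b* was at 1.27 (-0.16 to 2.91), again with the opposite sign under quantile normalization, and *Oas1a* had 4 reads against none. The lower genes were *Oasl1*, with no read against 7 (at least 2.58-fold), and *Oas1g*, with no read against 3.

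In shNFIB cells 6 of 7 genes were higher at day 5 than at day 0, against 12.6% of the 11513 genes, and *Oasl1* had no read on either day. *Oasl2* was at 7.81 (6.89 to 8.95), *Oas1a* at 6.05 (4.48 to 8.34) and *Oas1b* at 4.02 (2.58 to 5.94). *Oas2* had 364 reads against none, at least 143-fold higher, *Oas1g* was at least 13.4-fold and *Oas3* at least 7.85-fold higher. In shMLL1 cells 7 of 7 genes were higher, against 20.4%. The log2 ratio was 6.34 for *Oas1a* (5.96 to 6.74), 6.49 for *Oas1b* (5.51 to 7.71), 8.41 for *Oas1g* (7.19 to 10.04), 7.61 for *Oas2* (7.07 to 8.22), 7.80 for *Oas3* (6.58 to 9.43), 4.28 for *Oasl1* (2.66 to 6.59) and 7.78 for *Oasl2* (7.39 to 8.20). Under quantile normalization these ratios were lower, with *Oas3* at 5.03 and *Oasl1* at 1.19. *Oasl2* thus had nearly the same ratio of day 5 to day 0 in shNFIB and shMLL1 cells, and *Oas1a* had overlapping intervals in both lines.

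The libraries with the highest *Oas* levels, shMLL1 and shNFIB cells at day 5, were also compared with each other, a comparison added after the values had been seen. All 7 genes were more than 2-fold higher in shMLL1 cells, against 6.08% of the 11513 genes, but by different amounts. *Oasl2* was 2.81-fold higher, with a log2 ratio of 1.49 (1.42 to 1.56). *Oas1b* was at 2.44 (2.04 to 2.86) and *Oas2* at 2.59 (2.44 to 2.75). *Oas1a* was at 3.47 (3.25 to 3.70), *Oas1g* at 4.38 (3.89 to 4.91) and *Oas3*, 23.1-fold higher, at 4.53 (3.90 to 5.25). *Oasl1* had 58 reads against none, at least 8.03-fold. The intervals of *Oasl2*, *Oas1a* and *Oas3* do not overlap each other.

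The make-up of the family therefore differed between the libraries. Of the summed RPKM of the 7 genes, *Oas1a* made up 69.6% with shControl on day 0 and 49.9% on day 5. In shNFIB cells at day 5 *Oasl2* was the most abundant with 55.5%, and *Oas1a* made up 18.4%. In shKDM4D cells at day 5 *Oasl2* was also the most abundant, with 50.5% of a sum that rests on 123 reads. In shMLL1 cells *Oas1a* made up 57.0% at day 0 and 35.9% at day 5, when *Oasl2* made up 27.3% and *Oas2* 17.8%. The shares in shKDM4D and shNFIB cells at day 0 rest on 26 and 16 reads over all 7 genes, against 25009 in shMLL1 cells at day 5.

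**Figure D4:**
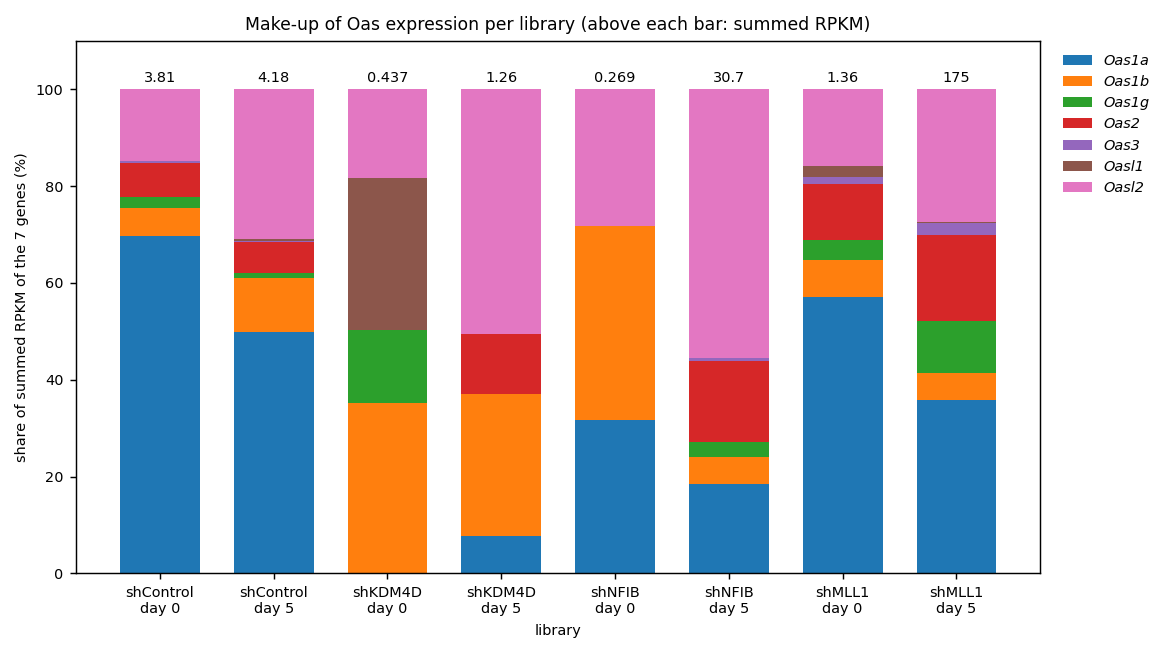
Share of each gene in the summed RPKM of the 7 *Oas* genes, in percent, for each of the 8 libraries, with the summed RPKM above each bar. *Oas1a* holds the largest share in shControl and shMLL1 cells on both days, and *Oasl2* in shNFIB (55.5%) and shKDM4D cells (50.5%) at day 5.

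*Oas1a* and *Oas1g* are near-identical over long stretches, and their reads are uncertain where the counting could split them. Of the 100-base windows along the transcripts of *Oas1a*, 40.9% were also found in another gene, which was *Oas1g*, and the share in *Oas1g* was 31.2%. No 100-base window of the other 5 genes was shared. The read length is not given in the sources used here, and with 50-base windows the shares were 57.6% in *Oas1a*, 45.7% in *Oas1g*, 2.98% in *Oas1b* (in part with *Oas1g*), 0.52% in *Oas3* and 0.14% in *Oasl2*, with none in *Oas2* and *Oasl1*. Counted together, *Oas1a* and *Oas1g* had a log2 ratio to shControl cells at day 5 of -4.45 (-6.36 to -3.03) with shKDM4D, 1.67 (1.28 to 2.06) with shNFIB and 5.34 (5.01 to 5.68) with shMLL1, so the directions were those of *Oas1a* alone. *Oas1g* made up 2.56% of the reads of the pair with shControl on day 5 (exact 95% interval 0.312% to 8.96%), 16.7% with shNFIB (11.9% to 22.6%) and 27.4% with shMLL1 (26.3% to 28.5%). *Oas2* and *Oasl1* overlap the antisense-strand genes *Gm43068* and *Gm13822*, and whether the counting used strand is not given in the sources used here.

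Genes of 2-5A turnover and *Abce1* were present throughout. *Abce1*, which encodes a ribosome recycling factor, had an RPKM between 13.1 and 40.4. *Pde12* and *Akap7*, whose products can degrade 2-5A, had RPKM values between 1.59 and 3.78 and between 2.60 and 5.26. In shNFIB and shMLL1 cells at day 5 none of these 3 genes was more than 2-fold from shControl cells in either direction. Most of the 11513 genes were not either, since 5.54% and 5.25% were higher and 5.67% and 4.02% were lower. In shKDM4D cells at day 5 *Akap7* was more than 2-fold lower, at 2.60 RPKM against 5.26 with shControl, against 4.57% of the 11513 genes.

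Of the 5 *Oas* genes outside the list, only *Oas1c* passed an RPKM of 1. It was at 0.609 and 2.26 RPKM with shControl, 0.340 and 1.12 with shKDM4D, 0.223 and 1.05 with shNFIB, and 0.305 and 7.42 with shMLL1. On day 5 the log2 ratio of *Oas1c* to shControl cells was 1.72 (1.42 to 2.03) in shMLL1 cells but -1.11 (-1.67 to -0.57) in shNFIB cells. There *Oas1b*, whose start lies 121 bases away, was at 1.90. *Oas1d* had 4 reads in shNFIB cells and 29 reads in shMLL1 cells at day 5 and none in the other 6 libraries. *Oas1e*, *Oas1f* and *Oas1h* had 4, 1 and 5 reads in shMLL1 cells at day 5 and were listed at 0 elsewhere.

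Genes of the pathway around OAS were taken from lists that were made with earlier results of these data known. Of 8 sensors and partners for double-stranded nucleic acid, at day 5 the number more than 2-fold higher than with shControl was 5 for shNFIB, against 5.54% of the 11513 genes, and 7 for shMLL1, against 5.25%. The median on the log2(RPKM + 0.1) scale was 1.09 and 2.04, against a median over the 11513 genes that lay within 0.1 of 0 in both comparisons. *Zbp1*, a sensor of Z-form nucleic acid, had an RPKM of 0.689, 15.1 and 57.3 in shControl, shNFIB and shMLL1 cells at day 5. *Ifih1*, which encodes MDA5, had 0.836, 1.18 and 10.5. *Mavs*, the adaptor of the RNA helicases, stayed between 6.94 and 10.9 over the 8 libraries. *Mb21d1* encodes cGAS, whose fold is related to that of OAS, and was at 3.76 and 1.52 RPKM (day 0 and day 5) with shControl, 4.40 and 2.66 with shKDM4D, 4.61 and 4.04 with shNFIB, and 5.67 and 4.14 with shMLL1. It was lower at day 5 than at day 0 in each line, with the lowest value in shControl cells at day 5. Against that value *Mb21d1* was more than 2-fold higher in shNFIB and shMLL1 cells at day 5, against 5.54% and 5.25% of the 11513 genes.

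Of the interferon ligand and receptor genes, *Ifnb1* had no read in 6 libraries, and 1 read and 3 reads in shMLL1 cells at day 0 and day 5. Transcripts of *Ifnar1*, *Ifnar2*, *Jak1* and *Tyk2* were within 2-fold of shControl cells in each of the 6 comparisons of a knockdown line with shControl cells. So were most of the 11513 genes, of which between 1.67% and 5.54% were higher and between 4.02% and 7.43% lower. Between the days in shMLL1 cells *Ifnar2* went from 14.0 to 28.8 RPKM, more than 2-fold higher, against 20.4% of the 11513 genes. Of 8 factors, 4 were higher in shNFIB cells at day 5, against 5.54% of the 11513 genes, and 4 in shMLL1 cells, against 5.25%. None was lower, against 5.67% and 4.02%. *Irf7*, the factor that amplifies interferon expression, was at 1.89 RPKM with shControl, 1.21 with shKDM4D, 13.3 with shNFIB and 80.6 with shMLL1 on day 5. *Stat2* and *Irf9*, which encode parts of ISGF3, had log2 ratios to shControl cells of 1.84 and 1.76 with shNFIB, and of 2.68 and 2.06 with shMLL1. *Irf3* stayed between 3.78 and 5.56 over the 8 libraries.

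Of 11 other interferon-stimulated effector genes, 9 were higher in shNFIB cells at day 5, against 5.54% of the 11513 genes, and 11 in shMLL1 cells, against 5.25%. The medians on the log2(RPKM + 0.1) scale were 3.33 and 4.50. *Isg15*, a ubiquitin-like modifier, was at 3.70 RPKM with shControl, 1.90 with shKDM4D, 76.6 with shNFIB and 192 with shMLL1 on day 5. At day 0, the numbers lower than shControl were 9 of 11 for shKDM4D (4.26% of the 11513 genes), 7 for shNFIB (6.05%) and 5 for shMLL1 (7.43%), and the numbers higher were 0 (1.98%), 1 (2.95%) and 2 (1.67%). By the rule with the interval, 6, 5 and 5 were lower, against 3.24%, 5.02% and 6.63%, and none was higher, against 1.55%, 2.43% and 1.22%. *Rsad2*, which encodes viperin, was listed at 0 in shNFIB cells at day 5 and had 710 reads in shMLL1 cells. Its neighbour *Cmpk2* had 2 reads and 360 reads. Both differed from *Oas2* and *Oasl2*, which were high in both libraries, and were like *Oasl1* in that respect.

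**Figure D5:**
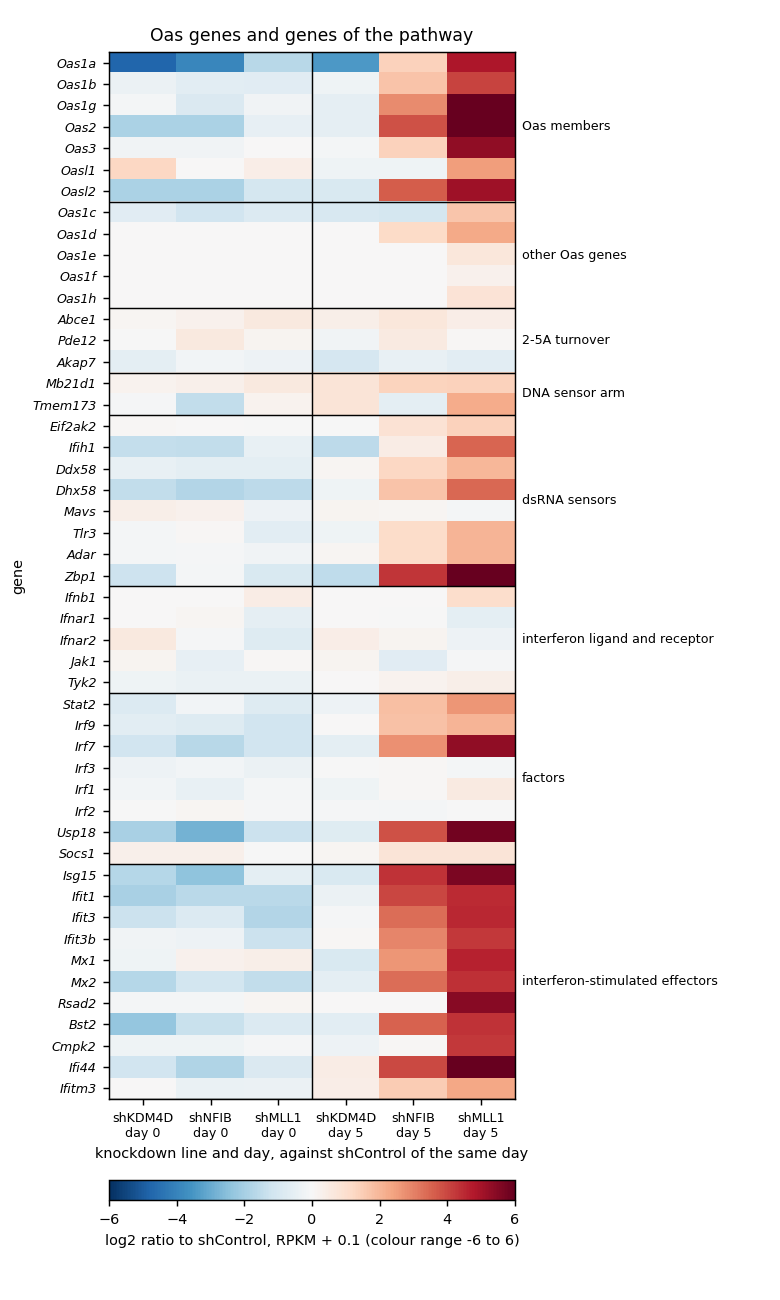
Log2 ratio to shControl cells of the same day, on the RPKM + 0.1 scale and with colours limited to -6 to 6, for the 7 *Oas* genes and the pathway lists in each knockdown line at day 0 and day 5. The 7 *Oas* genes, *Irf7*, *Usp18*, *Zbp1* and most effectors are red in shNFIB and shMLL1 cells at day 5, except *Oasl1* in shNFIB cells. *Oas1c*, which is not among the 7, is on the lower side in shNFIB cells at day 5. The receptor and kinase genes and *Mavs* stay pale in all 6 columns.

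Markers of other cell types were examined beside these levels. Of 6 leukocyte markers, *Ptprc* and *Adgre1* had an RPKM of at most 0.0081 in every library and *Itgam* of at most 0.0213. The summed RPKM of the 6, carried by *Cd14* and *Cd68*, was between 4.34 and 9.71 and was highest in shMLL1 cells at day 5. Endothelial markers summed to at most 0.147, and epithelial markers, with *Epcam* at 0 in all 8 libraries, to at most 1.76. The 4 adipocyte markers summed on day 5 to 708 RPKM with shControl, 24.0 with shKDM4D, 0.717 with shNFIB and 2.61 with shMLL1. The libraries with high *Oas* levels thus had the lowest adipocyte marker sums of day 5. In shKDM4D cells at day 5, where *Oas* levels were low, the marker sum lay between theirs and that of shControl cells. Of shNFIB and shMLL1 cells at day 5, shNFIB cells had both the lower marker sum and the lower *Oas* sum. At day 0 the marker sum was at most 0.688 RPKM and the *Oas* sum at most 3.81 in every line. The part of the adipocyte fraction in the *Oas* levels was not tested.

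Across the 8 libraries the *Oas* genes varied together on the log2(RPKM + 0.1) scale. Pearson's r over the 21 pairs was between 0.51 and 0.99, with a median of 0.89. Without shNFIB and shMLL1 cells at day 5 the median over the remaining 6 libraries was 0.36, with a range from -0.49 to 0.90, so the high values rest on those 2 libraries. The genes whose pattern was most like the mean of the 7 were *Phf11a* (r = 0.990), *Epb41l4aos*, *Ifit1bl1*, *Rnf213*, *H2-T10*, *Gm4070*, *Irf7*, *AW011738*, *Helz2* and *Psmb10* (r = 0.979), each over 8 libraries. Most like *Oasl2* were *Isg15* (r = 0.997), *Ddx60*, *Bst2*, *Ifit1* and *Usp18*. Without the 2 libraries r was between 0.936 and 0.973 for these 5 genes. For the genes most like the mean of the 7 it was lower, between 0.708 (*AW011738*) and 0.916 (*Psmb10*). These correlations are given as a description of 8 libraries that differ in depth and line.

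The genes next to the family on chromosome 5 differed in their levels. *Oas1d*, beside the *Oas* run and itself an *Oas* gene, had 4 reads with shNFIB and 29 with shMLL1 on day 5 and none elsewhere. *Gm9936* and *4930519G04Rik*, beside the *Oasl* genes, and *Rasal1*, *Dtx1* and *Rph3a*, beside the *Oas* run, had at most 2 reads in each of the 8 libraries. *2210016L21Rik*, also beside the *Oasl* genes, had an RPKM between 8.28 and 14.1, with its highest value in shMLL1 cells at day 5.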

How the data were processed

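RNA was measured in 8 libraries (total RNA, SMARTer kit). Mapping to GRCm38 was done by the authors in CLC Genomics Workbench 11.0.1, and they deposited RPKM values per gene, which correct for exon length and mapped reads; read length, annotation and the handling of reads that match several genes are not given in the sources used here. RPKM values were multiplied by GENCODE M21 exon lengths (40852 genes with a length), and the value of 1 read was found for each library. Between 96.2% and 96.5% of the values came out within 0.02 of a whole read, and those of the 7 genes within 0.00052.

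The members and gene lists were chosen with earlier results of these data known. Every member is named, pathway genes are named by list (some are not reported here), and the genes most like the members by Pearson's r on log2(RPKM + 0.1). Ratios use RPKM without a pseudocount, with exact (Clopper-Pearson) 95% counting intervals from the recovered reads. A gene was called higher or lower past 2-fold, genes at 0 in 1 library included, and compared with the 11513 genes that exceeded an RPKM of 1 in any library. The floor was 3 reads. Alternatives were another pseudocount, scaling, filter or call rule. Sequences came from RefSeq windows of GRCm38.p6. No replicate test was possible. Reads were not separable by molecule, so intervals cover counting error only. The steps were tested on simulated data and run with Python 3.11.15, pandas 2.3.3 and SciPy 1.17.1.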

Additional observations from a re-analysis of the deposited data

Results flagged for a closer look

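For *Oas1a* and *Oasl2* in shNFIB and shMLL1 cells, and for *Oas2* in shNFIB cells, the ratio to shControl cells had opposite directions at day 0 and day 5. Each of these ratios had a counting interval that leaves out 0. The share of all genes with such a change of direction was not counted, so these genes are listed as a description. These differences between the days were not tested because each line and day has 1 library. In shNFIB cells the log2 ratio of *Oas1a* was -4.96 at day 0 and 1.44 at day 5. For *Oasl2* it was -2.90 and 3.72. *Oas2* had no read in shNFIB cells at day 0, where shControl cells had 32, and its log2 ratio at day 5 was 4.27. In shMLL1 cells the log2 ratio of *Oas1a* was -1.77 at day 0 and 4.91 at day 5, and that of *Oasl2* was -1.38 and 5.21.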

How the results depend on the processing

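The counts of higher *Oas* genes at day 5 in shMLL1 cells (7 of 7) and shNFIB cells (6 of 7) were the same under quantile normalization, median-of-ratios scaling and the ratio to *Gapdh*, and so were those of higher genes at day 5 against day 0 in these lines. Adding 1 to each RPKM left 3 higher in shNFIB cells at day 5, 1 lower in each knockdown line at day 0, 1 lower in shKDM4D cells at day 5, and 0 in either direction between the days in shControl and shKDM4D cells. It also left 0 higher in shKDM4D and shMLL1 cells at day 0 and 0 lower in shNFIB cells at day 5. In shMLL1 cells it left 6 higher at day 5 and 6 higher between the days, and in shNFIB cells 4 higher between the days. Adding 0.1 left 3 lower in shNFIB cells and 0 higher in shMLL1 cells at day 0, 1 lower in shKDM4D and 0 lower in shNFIB cells at day 5, 1 higher and 0 lower between the days in shControl cells, and 2 higher and 1 lower in shKDM4D cells. The rule with the interval gave these last 8 counts too, except 2 lower in shKDM4D cells at day 5. At day 0 quantile normalization gave 1 higher and 4 lower in shNFIB cells and 2 higher and 1 lower in shMLL1 cells. Between the days it gave 1 higher and 3 lower in shControl cells and 1 lower in shNFIB cells. It turned *Oas1b* between the days to -0.16 in shControl and -0.028 in shKDM4D cells. Ratios to shControl cells that were below 0 also turned above 0, by less than their counting error. These were *Oas1b* (0.064) and *Oas1g* (0.44) in shKDM4D cells at day 0 and *Oas1g* (0.50) in shMLL1 cells at day 0. In shKDM4D cells at day 5 they were *Oas1b* (0.20) and *Oas2* (0.16). The cause was not tested. With a mean RPKM over 0.5 as the filter, *Oasl1* was left out, which gave 0 higher in shKDM4D and shMLL1 cells at day 0, 0 lower in shNFIB cells at day 5 and 1 lower between the days in shKDM4D cells. Of the ratios of single genes, 47 of 47 under median-of-ratios scaling and 45 of 47 relative to *Gapdh* moved by less than their counting error, against 26 of 47 under quantile normalization, 38 of 47 with 0.1 added and 16 of 47 with 1 added. Quantile normalization put *Oas2* in shMLL1 cells at day 0 at 0.20, and the ratios of day 5 to day 0 in shMLL1 cells between 1.19 (*Oasl1*) and 6.54 (*Oas1g*). The median of all genes moved by -0.56 to 0.64 (log2) relative to *Gapdh*, by -0.28 to 0.11 under quantile normalization and by -0.16 to 0.08 under median-of-ratios scaling. The labels give no replicate numbers to use as a block. Day 5 was compared with day 0 within each line, and a fit over the 4 lines as pairs, which would treat different knockdowns as replicates, was not run.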
